A study of Mus musculus with 4 samples.

Results

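The genes of the cytosolic ribosome were followed through accessible regions of CD4+CD8+ double-positive (DP) thymocytes. Members were protein-coding genes whose symbol is Rpl or Rps followed by a number, or Rplp0, Rplp1, Rplp2 or Rpsa, without the Rps6k kinases. They came to 91 of the 21900 protein-coding genes of the RefSeq mouse gene table (GRCm38.p6), 56 of them named for the large subunit and 33 for the small subunit. Rps19bp1 and Rps23rg1 matched by symbol alone. The first encodes a binding partner of a small subunit protein and the other is named a retroposed gene, and both were counted as members and with neither subunit. Of the 89 subunit genes, 77 were core genes, 8 were paralogs of a core gene and 4 carried the symbol of a retrocopy.

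Chromatin was opened with a transposase that cuts and tags accessible DNA (ATAC-seq) in nuclei of sorted thymocytes, and the study asked what Chaf1b does in thymocyte development. KO mice carried Cd4-cre with both Chaf1b alleles flanked by loxP sites (Chaf1b floxp/floxp), and WT mice carried the same floxed alleles without Cre, all on the C57BL/6 background. Chaf1b encodes a subunit of chromatin assembly factor 1, which deposits histones on newly replicated DNA, and Cd4-cre deletes floxed alleles from about the DP stage onward, so cells reach that stage with the gene intact. Each group had 2 replicates, which the authors pooled into 1 list of accessible regions, so every value below is a value per group and no test between groups was possible. The sources used here give neither the age of the mice nor the position of the loxP sites.

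The KO list held 7645 regions and the WT list 15215, with a genome background of 1.03 reads in KO and 1.37 in WT, a depth ratio of 0.752. A difference in depth and a difference between genotypes cannot be told apart where a region is missing from the KO list. Of 13 DP thymocyte marker genes, 1 had a KO region at an end (Cd8b1, a coreceptor chain) and 8 had a WT region, while Cd4 and Cd8a, the genes behind the sort, had none in either list. Of 20 markers of B, myeloid, erythroid and stromal cells, none had a KO region and 1 (Ebf1, a B cell transcription factor) had a WT region. Over all protein-coding genes 21.1% had a KO region at an end and 34.6% a WT region. A gene without a region below is a gene with no call in that list, which is no measurement of closed chromatin.

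Ribosomal proteins assemble with ribosomal RNA in the nucleolus into the small subunit, which decodes messenger RNA, and the large subunit, which joins amino acids. Their genes are among the most transcribed in growing cells and are kept at like output so that subunits form in equal numbers. Their promoters are short and mostly free of a canonical TATA box, and in mammals carry sites for ETS family factors such as GABPA, for YY1 and for SP1. Transcripts start with a C followed by a pyrimidine tract, the 5′ terminal oligopyrimidine (TOP) motif, through which mTOR signalling controls their translation. DP thymocytes derive from a burst of division and are then largely small resting cells.

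Ribosomal protein genes were more often marked by an accessible region than protein-coding genes in general, in both lists. A gene was counted as called where a region overlapped the 1000 bp on either side of either annotated end, and its region of highest fold enrichment was used. In KO cells 30 of 91 members were called (33.0%, exact 95% interval 23.5 to 43.6), where 21.1% of all protein-coding genes were. In WT cells 55 members were called (60.4%, 49.6 to 70.5), where 34.6% of all protein-coding genes were. With the WT list limited to the length of the KO list, 30.8% of members (21.5 to 41.3) and 21.6% of all protein-coding genes had a WT region, a share inside the members' interval. Of the 55 with a WT region, 29 also had a KO region (52.7%, 38.8 to 66.3), and the share over all 7571 protein-coding genes with a WT region was 59.4%, inside that interval. Intervals here cover counting error over genes only and not the spread between mice.

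A WT region without a KO region was found at 26 members (28.6%), where 14.0% of all protein-coding genes had that pattern. These shares are over all genes of each set, and members had a WT region more often. Genes of mitochondrial ribosomal proteins (28.2%) and of the proteasome (30.0%) had the pattern about as often as members. A KO region without a WT region was found at 1 member (1.10%), where 0.584% of all genes had it. The remaining 35 members (38.5%) had no region at an end in either list, where 64.8% of all protein-coding genes had none. Among core genes 27 of 77 were called in KO cells (35.1%) and 52 of 77 in WT cells (67.5%, 55.9 to 77.8).

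**Figure D1:**
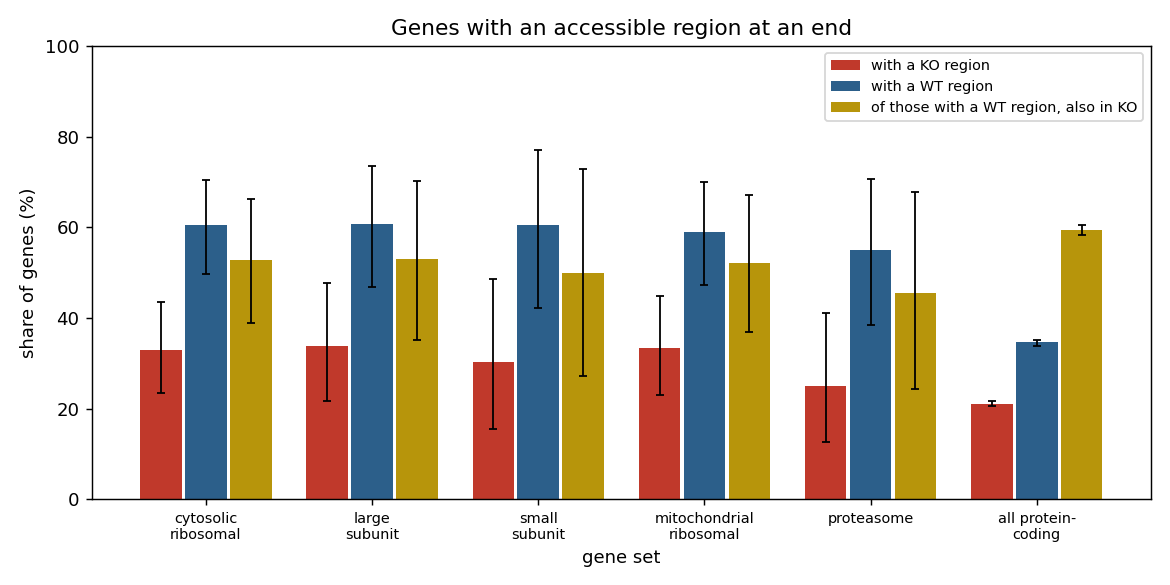
Share of genes (%) with a region at a gene end in the KO list, in the WT list, and with a KO region among genes with a WT region, for each gene set. Bars are shares and whiskers exact 95% intervals for counting error; the cytosolic ribosomal bars stand at 33.0%, 60.4% and 52.7%, and those of all protein-coding genes at 21.1%, 34.6% and 59.4%.

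The plot of shares by gene set places the large and the small subunit beside each other. Large subunit genes were called at 19 of 56 in KO cells (33.9%, 21.8 to 47.8) and at 34 of 56 in WT cells (60.7%, 46.8 to 73.5). Small subunit genes were called at 10 of 33 in KO cells (30.3%, 15.6 to 48.7) and at 20 of 33 in WT cells (60.6%, 42.1 to 77.1). The subunits thus had nearly equal shares within each list. Of genes with a WT region, 18 of 34 of the large subunit (52.9%, 35.1 to 70.2) and 10 of 20 of the small subunit (50.0%, 27.2 to 72.8) also had a KO region, and these intervals overlap widely.

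Genes of other large complexes gave shares close to these. Mitochondrial ribosomal proteins build the ribosome that translates the mitochondrial genome, and 26 of their 78 genes were called in KO cells (33.3%) and 46 in WT cells (59.0%). Of those 46, 24 also had a KO region (52.2%, 36.9 to 67.1). Proteasome subunits, which form the complex that degrades ubiquitin-tagged proteins, had 10 of 40 genes called in KO cells (25.0%) and 22 in WT cells (55.0%), and 10 of the 22 were called in both lists (45.5%, 24.4 to 67.8). All of these intervals overlap those of the cytosolic ribosomal genes, so the shares are not particular to the cytosolic ribosome.

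Rpl15 and Rpl37, of the large subunit, had the highest fold enrichment of any member in both lists. Fold enrichment is the authors' value at a region's summit, the reads stacked there over the local background with 1 added to each, and it is used here to rank and describe regions within a list. Over the members it reached a median of 6.79 in the KO list (3.94 to 10.9) and 6.67 in the WT list (3.65 to 15.2). Over all protein-coding genes with a region the medians were 6.87 in the KO list and 7.24 in the WT list. Thus regions of ribosomal protein genes stood near the middle of the regions at gene ends in fold, and Rpl15 and Rpl37 stood near the top. By subunit the KO medians were 6.54 for the large and 7.17 for the small subunit, and the WT medians 6.90 for the large and 6.45 for the small. Fold enrichment reached 10 at 3 members in the KO list (Rpl15, Rpl37 and Rps13) and at 9 in the WT list.

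Rpl15, an RNA-binding large subunit protein, had a KO region at chr14:18270904-18271218 with a fold enrichment of 10.9 and 33 summit reads, against a WT region at chr14:18270716-18271279 with 15.2 and 59 reads. Summit reads are the whole-number pileup worked out from the deposited fold enrichment and p. Rpl37, a zinc-binding large subunit protein, had 10.6 and 26 reads in KO cells at chr15:5116268-5116760, against 14.1 and 54 reads in WT cells at chr15:5116300-5116729. Rps13, a small subunit protein, had 10.0 and 24 reads in KO cells at chr7:116334039-116334386, against 9.70 and 31 reads in WT cells at chr7:116333792-116334359. These were the members with the highest KO fold enrichment, and their KO summits lay at −103 bp, −7 bp and −17 bp from the annotated start, a minus sign meaning upstream. The Rpl15 region also lay within 1000 bp of an end of Nkiras1, and the Rpl37 region within 1000 bp of an end of Card6. Neither can be assigned to the ribosomal gene alone.

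The promoters of these 3 genes are printed because they had the highest fold enrichment in the KO list. Each runs from 250 bases before to 50 bases after the start, from RefSeq on GRCm38.p6, read along the gene's own strand: Rpl15 at chr14:18270937-18271236 (minus), Rpl37 at chr15:5116363-5116662 (plus) and Rps13 at chr7:116334141-116334440 (minus). Capitals mark matches to the ETS motifs ACTTCCG and CCGGAAG and to the YY1 motif AAGATGGC on either strand, and a pyrimidine run of at least 5 bases through the start.
Rpl15: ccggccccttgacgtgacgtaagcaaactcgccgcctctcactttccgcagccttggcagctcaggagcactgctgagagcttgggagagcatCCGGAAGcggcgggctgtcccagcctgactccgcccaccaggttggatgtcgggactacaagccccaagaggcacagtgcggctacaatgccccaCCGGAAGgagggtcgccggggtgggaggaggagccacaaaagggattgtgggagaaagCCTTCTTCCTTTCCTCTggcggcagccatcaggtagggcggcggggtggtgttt
Rpl37: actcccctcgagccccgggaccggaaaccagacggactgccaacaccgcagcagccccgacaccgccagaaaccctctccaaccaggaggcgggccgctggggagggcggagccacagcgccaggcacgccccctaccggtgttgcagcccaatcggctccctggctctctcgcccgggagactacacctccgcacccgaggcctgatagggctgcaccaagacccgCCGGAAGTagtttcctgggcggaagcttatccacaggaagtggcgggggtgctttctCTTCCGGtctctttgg
Rps13: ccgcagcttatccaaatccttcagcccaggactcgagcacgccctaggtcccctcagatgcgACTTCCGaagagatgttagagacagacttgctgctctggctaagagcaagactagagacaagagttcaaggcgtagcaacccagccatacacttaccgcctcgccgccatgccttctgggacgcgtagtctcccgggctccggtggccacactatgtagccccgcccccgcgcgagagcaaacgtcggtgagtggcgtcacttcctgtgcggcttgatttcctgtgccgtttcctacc
Rpl15 has CCGGAAG matches beginning at positions −157 and −62 from the start and a run of 17 pyrimidines through the start. Rpl37 has overlapping ACTTCCG and CCGGAAG matches beginning at −23 and −22 and a further match at 34. Rps13 has a single ETS match, at −188.

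Among the other members with high WT fold enrichment, several were also called in KO cells. Rpl31, of the large subunit, had a fold enrichment of 6.54 with 16 reads in KO cells and 10.5 with 24 reads in WT cells, and a second KO region of 11 reads lay 390 bp downstream of its start. Rpl22l1, a paralog of Rpl22, had 6.61 with 15 reads in KO cells and 10.1 with 27 reads in WT cells. At both genes the KO summit held fewer reads, and the depth ratio of 0.752 alone gives fewer KO reads.

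Rpl36a, an X-linked large subunit gene, had a fold enrichment of 5.41 with 10 reads in KO cells, against 10.1 with 23 reads in WT cells. Rps27a, which is made as a fusion with ubiquitin, had 7.52 with 19 reads in KO cells, against 9.93 with 28 reads in WT cells. The Rps27a region also lay within 1000 bp of an end of Clhc1. Both again had fewer reads in KO cells, as the depth ratio alone would give, and read counts of this size carry wide intervals.

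**Figure D2:**
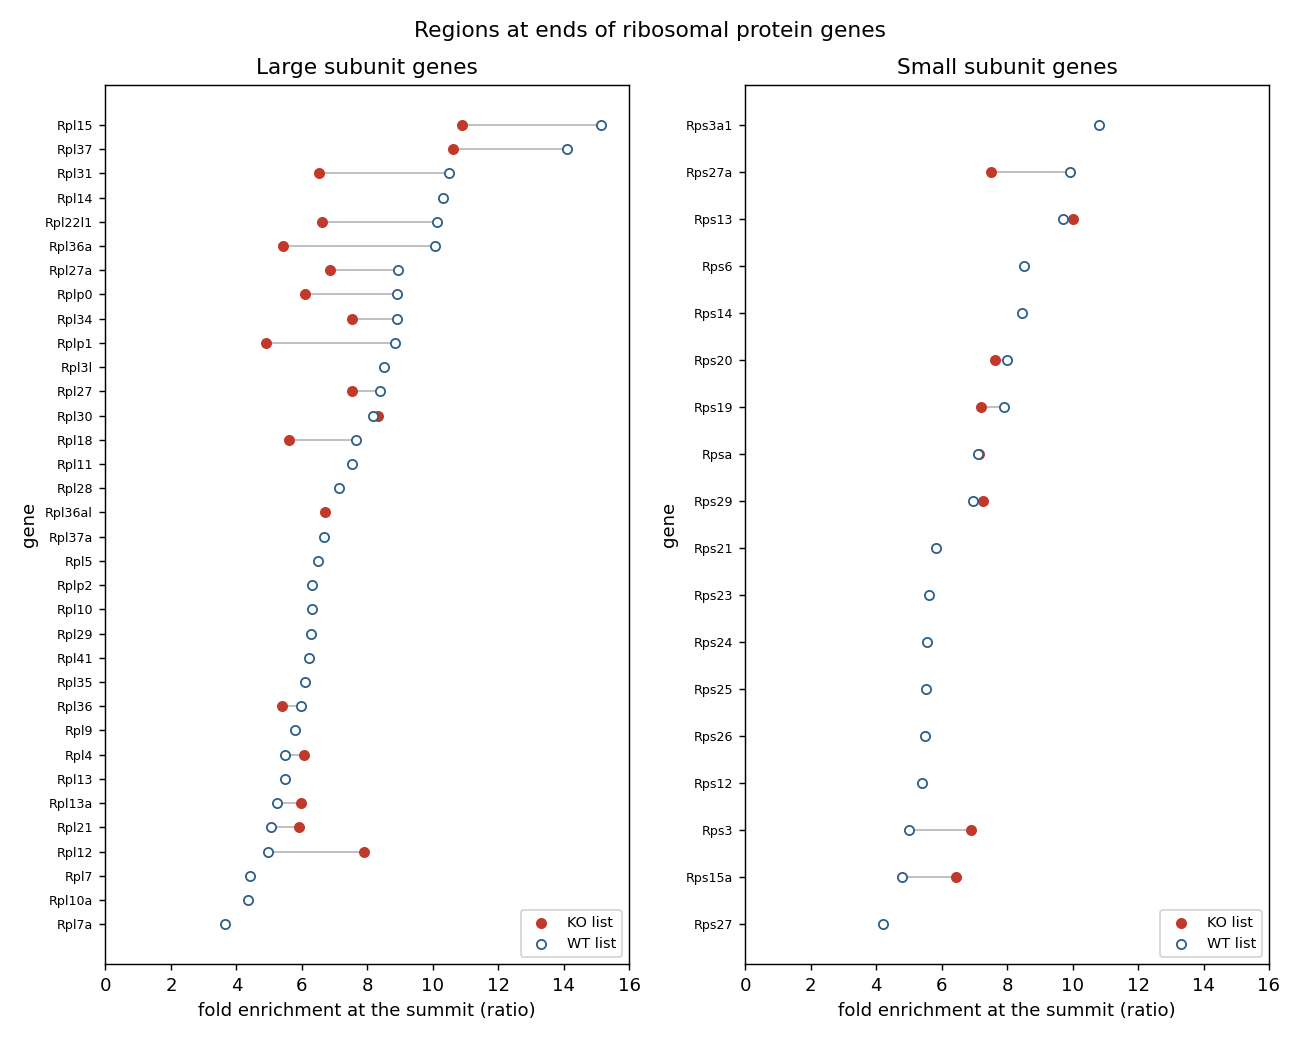
Fold enrichment at the summit (ratio, linear axis) of the region at 52 called ribosomal protein genes, large subunit left and small subunit right, with filled points for the KO list and open points for the WT list. Genes run down the page by WT fold enrichment (Rpl36al by its KO value); Rpl15 stands highest at 10.9 in KO and 15.2 in WT, and open points with no filled partner are the genes called in WT only.

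The stalk proteins Rplp0, Rplp1 and Rplp2 form the flexible arm of the large subunit that recruits translation factors. Rplp0, the base of the stalk, had 13 reads in KO cells and 25 in WT cells, with fold enrichments of 6.09 in KO and 8.90 in WT. Rplp1 had 9 reads in KO cells and 20 in WT cells, with 4.92 in KO and 8.85 in WT. Rplp2 had no KO region and a WT region of 20 reads (fold enrichment 6.33). That region also lay within 1000 bp of an end of Pidd1. Rpsa, the small subunit protein also known as the laminin receptor, had 14 reads in KO cells and 20 in WT cells, with 7.14 in KO and 7.09 in WT. Among these 4 genes the KO count was the lower wherever both were called. The same holds for most genes, as 139 of the 4496 protein-coding genes called in both lists had more KO than WT reads.

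At the 29 members called in both lists the KO share of summit reads was a little below the share that depth alone gives. If only depth differed, 42.9% of the reads at a summit would be from KO cells. The summits held 457 KO reads and 697 WT reads, a KO share of 39.6% (exact 95% interval 36.8 to 42.5). Over the 4496 protein-coding genes called in both lists the share was 38.4% (38.2 to 38.6). The share of the members thus lay just under 42.9%, and its interval held the value of all genes. Both the interval of the members and that of all genes ended below 42.9%. The cause of this gap was not tested.

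Gene by gene the KO share had a median of 40.7% and ran between 29.5% and 57.1%, where all protein-coding genes had a median of 38.6%. It exceeded 42.9% at 10 of 29 members (34.5%), against 24.1% of all genes called in both lists. Large subunit genes held 288 KO reads and 463 WT reads (38.3%, 34.9 to 41.9), and small subunit genes 156 KO reads and 220 WT reads (41.5%, 36.5 to 46.7). The interval of every one of the 29 genes held 42.9%, so at this depth no single gene could be set apart from the depth ratio. Genes enter this set only if they passed the threshold in both lists, which leaves out those with the lowest KO signal.

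**Figure D3:**
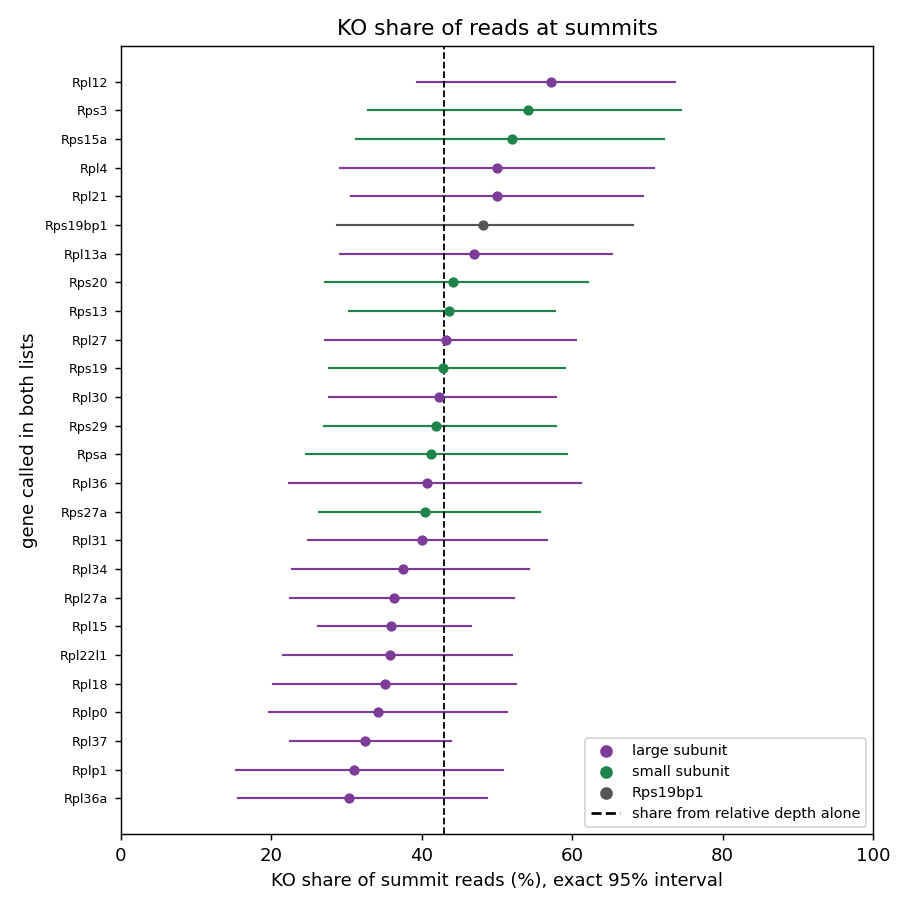
KO share of summit reads (%) at 26 of the 29 genes called in both lists, coloured by subunit, with exact 95% intervals for counting error; the dashed line marks the 42.9% that relative depth alone gives. The shares shown run between 30.3% at Rpl36a and 57.1% at Rpl12, and every interval crosses the line.

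The 5 highest KO shares were found at Rpl12, Rps3, Rps15a, Rpl4 and Rpl21. Rpl12, a protein at the base of the stalk, had 20 reads in KO cells and 15 in WT cells (57.1%, 39.4 to 73.7) at a region 1363 bp downstream of its start in the KO list. A second region of Rpl12 at its start held 10 reads in KO cells and 14 in WT cells. Rps3, a protein at the messenger RNA entry that also acts in DNA repair, had 13 reads in KO cells and 11 in WT cells (54.2%, 32.8 to 74.4). Rps15a, of the small subunit, had 13 in KO cells and 12 in WT cells (52.0%, 31.3 to 72.2). These 3 of 29 members were the only ones above 50%, where 139 of 4496 protein-coding genes called in both lists were. All 3 intervals hold 42.9%.

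Rpl4, a large subunit protein that lines the exit tunnel, had 12 reads in each list at a region beyond its 3′ end. That region also lay within 1000 bp of an end of Snapc5. Rpl21, of the large subunit, had 14 reads in each list. Low shares were found at Rpl36a (30.3%, 15.6 to 48.7) and Rplp1 (31.0%, 15.3 to 50.8), and these intervals too hold 42.9%.

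The promoters of Rps3 at chr7:99483660-99483959 (minus) and Rps15a at chr7:118116098-118116397 (minus) are shown as those with the highest KO shares at a start, with capitals as above.
Rps3: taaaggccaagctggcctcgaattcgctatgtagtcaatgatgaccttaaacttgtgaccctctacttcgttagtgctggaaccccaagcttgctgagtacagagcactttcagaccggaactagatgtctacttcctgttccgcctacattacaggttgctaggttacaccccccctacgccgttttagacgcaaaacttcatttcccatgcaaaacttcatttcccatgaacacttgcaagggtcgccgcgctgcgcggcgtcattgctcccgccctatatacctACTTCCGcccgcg
Rps15a: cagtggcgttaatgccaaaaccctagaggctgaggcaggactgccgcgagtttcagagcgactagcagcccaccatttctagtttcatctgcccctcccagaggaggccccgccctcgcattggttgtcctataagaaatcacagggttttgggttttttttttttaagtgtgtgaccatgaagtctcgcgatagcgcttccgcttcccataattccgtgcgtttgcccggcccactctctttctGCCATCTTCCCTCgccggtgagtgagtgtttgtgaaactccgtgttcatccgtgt
The Rps3 window has an ACTTCCG match beginning 37 bases after the start. In Rps15a the YY1 match begins at −5, lies across the start and runs into a pyrimidine run of 9 bases.

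The members called in WT only had weaker WT regions than those called in both lists. Their median WT fold enrichment was 6.15 (3.65 to 10.8), against 8.18 (4.78 to 15.2) at members called in both, and their median WT summit held 15.0 reads, against 24.0. Of the WT regions at members, those of fold enrichment 8 or more had a KO region in 16 of 21 genes (76.2%, 52.8 to 91.8). In the band between 6 and 8 it was 5 of 14 (35.7%, 12.8 to 64.9), and below 6 it was 8 of 20 (40.0%, 19.1 to 63.9). Over all protein-coding genes the shares in these bands were 88.6%, 53.6% and 25.5%, so among ribosomal protein genes, as among genes in general, KO calls were most frequent where the WT region was strongest.

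**Figure D4:**
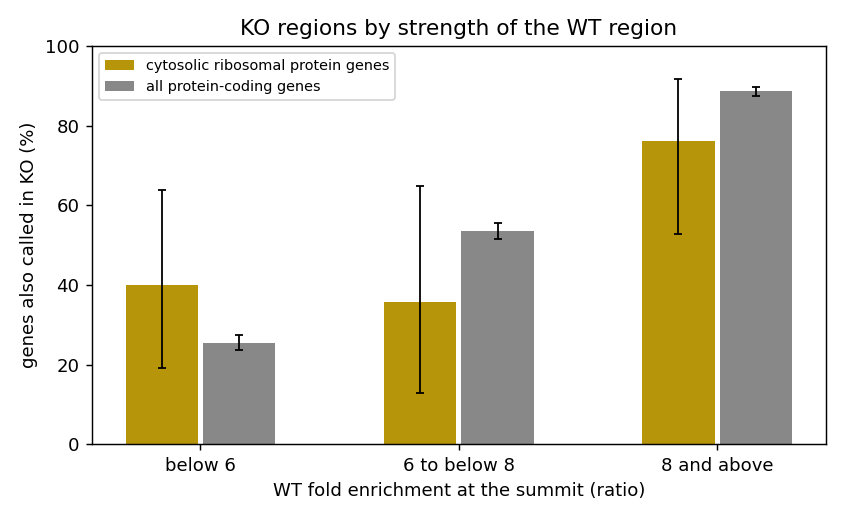
Share (%) of genes with a WT region that also had a KO region, by the WT fold enrichment of the region, for ribosomal protein genes and for all protein-coding genes, with exact 95% intervals. Ribosomal protein genes stand at 40.0%, 35.7% and 76.2% from the weakest to the strongest band, and all protein-coding genes at 25.5%, 53.6% and 88.6%.

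Rps3a1, a small subunit gene, had the strongest WT region with no KO counterpart. No KO region was called there, and the WT region at chr3:86142341-86142893 had a fold enrichment of 10.8 with 34 reads. Scaled to KO depth those 34 reads come to 25.6, and KO regions of like local background were called from 10 reads. The nearest KO region lay 81.4 kb from the gene. Rpl14, of the large subunit, had no KO region and a WT region at chr9:120571280-120571644 with a fold enrichment of 10.3 and 26 reads, or 19.6 at KO depth, where KO regions of like background were called from 7 reads. The nearest KO region lay 8.03 kb from Rpl14. At both genes the scaled WT count was above the lowest KO count called at a like background. That lowest count is a minimum and not a usual level, as the median KO summit held 15.0 reads. Why no KO region was called at these genes was not tested.

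Of the 26 members called in WT only, 24 had WT reads that, scaled to KO depth, reached the lowest KO summit called at a like background, and 4 had at least 2 times that level. The same counts over all protein-coding genes called in WT only are not given here. The other strong members called in WT only each had between 18 and 24 WT reads. Rps6, the substrate of the S6 kinases, had a WT fold enrichment of 8.50 with 24 reads. Rps14, of the small subunit, had 8.45 with 23 reads, and Rpl3l, the muscle paralog of Rpl3, had 8.51 with 23 reads at its 3′ end. The Rpl3l region also lay within 1000 bp of an end of Msrb1. Rpl11, which binds the p53 regulator Mdm2 when free of the ribosome, had 7.54 with 18 reads, and Rpl28 had 7.14 with 18 reads. None of these had a KO region to set beside the WT value.

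The rest of the group had WT fold enrichments between 3.65 and 6.67. From the large subunit they were Rpl37a, Rpl5 (the partner of Rpl11 and 5S ribosomal RNA), Rplp2, Rpl10, Rpl29, Rpl41, Rpl35, Rpl9, Rpl13, Rpl7, Rpl10a and Rpl7a, the weakest at 3.65 with 9 reads. From the small subunit they were Rps21, Rps23, Rps24, Rps25, Rps26, Rps12 and Rps27, which ran between 4.20 and 5.84. Rps24, Rps26 and Rpl5 are among the genes mutated in human Diamond-Blackfan anaemia. Disease genes among the other members are not listed here, and a link between disease and calls was not tested.

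Rpl36al, a paralog of Rpl36a, was the single member called in KO only. Its KO region at chr12:69183970-69184169 had a fold enrichment of 6.72 with 15 reads and a width of 200 bp, the smallest in either list, and the nearest WT region lay 14.0 kb from the gene. The KO region of Rpl36al also lay within 1000 bp of an end of Mgat2, a glycosyltransferase gene. The promoters of Rps3a1 at chr3:86142619-86142918 (minus), Rpl14 at chr9:120571267-120571566 (plus) and Rpl36al at chr12:69184018-69184317 (minus) are shown because these are the clearest calls in 1 list.
Rps3a1: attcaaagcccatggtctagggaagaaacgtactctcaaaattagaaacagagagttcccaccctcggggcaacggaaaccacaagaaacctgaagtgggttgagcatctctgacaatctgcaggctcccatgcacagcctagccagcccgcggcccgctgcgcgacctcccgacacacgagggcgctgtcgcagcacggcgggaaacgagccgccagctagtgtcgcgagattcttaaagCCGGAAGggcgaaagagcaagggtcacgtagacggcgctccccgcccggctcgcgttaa
Rpl14: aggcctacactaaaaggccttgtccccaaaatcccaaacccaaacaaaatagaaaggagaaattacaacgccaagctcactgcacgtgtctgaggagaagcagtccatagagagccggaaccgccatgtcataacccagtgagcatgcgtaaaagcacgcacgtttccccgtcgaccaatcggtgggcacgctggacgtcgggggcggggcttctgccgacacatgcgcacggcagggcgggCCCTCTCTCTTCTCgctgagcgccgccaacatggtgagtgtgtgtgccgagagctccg
Rpl36al: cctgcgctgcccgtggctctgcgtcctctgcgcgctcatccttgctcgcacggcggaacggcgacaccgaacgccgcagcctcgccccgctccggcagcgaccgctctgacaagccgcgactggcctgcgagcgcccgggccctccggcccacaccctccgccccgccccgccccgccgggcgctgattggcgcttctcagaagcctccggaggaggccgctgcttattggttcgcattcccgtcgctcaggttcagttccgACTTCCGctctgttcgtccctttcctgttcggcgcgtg
Rps3a1 has a CCGGAAG match beginning at −9. Rpl14 has no ETS match in this window and a run of 14 pyrimidines through the start. Rpl36al has an ACTTCCG match beginning 12 bases after the start and no pyrimidine run.

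Most summits lay near the start of the gene where it could be checked. The promoter table gave a strand and start for 70 members. Among those called, the KO summit lay at a median of −34 bp from the start over 20 genes, and the WT summit at −54 bp over 42 genes. Within 250 bp of the start lay 17 of the 20 KO summits and 34 of the 42 WT summits. A call needed a region within 1000 bp of a gene end, so nearness to a start is partly built in. At the 29 members called in both lists the summits were a median of 21.0 bp apart (1 to 123 bp), and the KO region was the narrower at 22 of them. These counts of positions and of narrower regions were not made over all protein-coding genes. Widths had a median of 290 bp in KO and 339 bp in WT, against 310 bp and 384 bp over all genes. Differences in width and in depth cannot be told apart here.

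**Figure D5:**
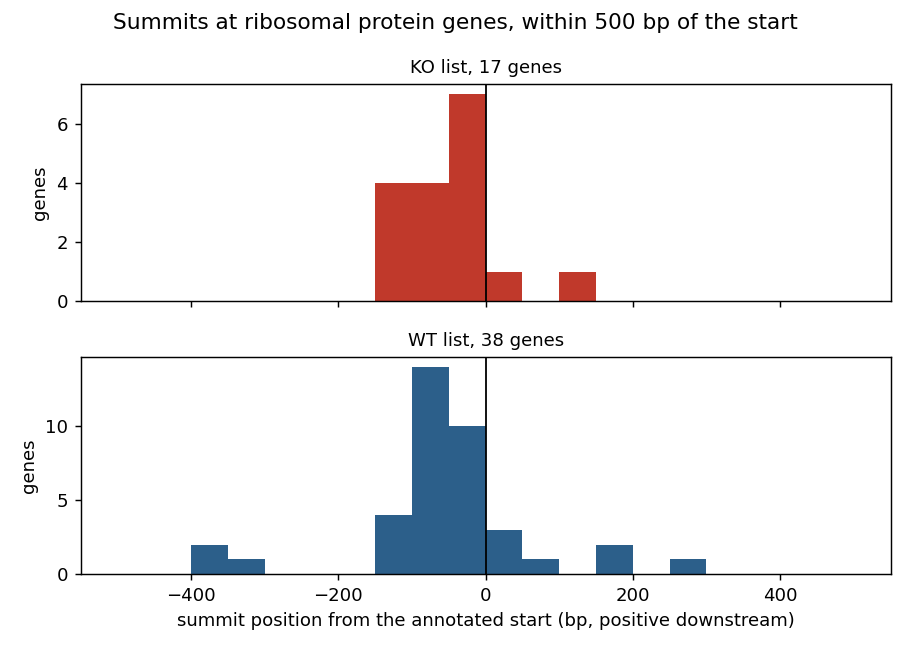
Number of ribosomal protein genes by the position of the region's summit from the annotated start (bp, positive downstream, bins of 50 bp), for the 17 KO and 38 WT genes with a summit within 500 bp. In both lists most summits lie in the 150 bp upstream of the start.

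ETS letters and a pyrimidine start stood in a larger share of core promoters than of promoters at large. An ETS motif (ACTTCCG or CCGGAAG, either strand, which overlap where CCGGAAGT occurs) stood in 30 of 57 core promoters (52.6%, 39.0 to 66.0), against 14.5% of all 17492 protein-coding promoters in the table. Of promoters of genes with a WT region, 26.1% held it. A C at the start followed by at least 4 pyrimidines stood in 12 of 57 core promoters (21.1%, 11.4 to 33.9), against 2.17% of all promoters. Beginning within 5 bases of the start, such a run stood in 45.6% of core promoters (32.4 to 59.3) and 18.7% of all. The YY1 motif stood in 4 of 57 (7.02%), against 3.22% of all. The interval of the YY1 share (1.95 to 17.0) held the share of all promoters, and those of the ETS motif and the pyrimidine start did not.

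CCCGCCC, an SP motif that lies within the longer CCCCGCCC, stood in 45.6% of core promoters and 34.0% of all promoters, but in 50.9% of those of genes with a WT region. The longer form stood in 29.8% of core promoters and 23.8% of all. CACGTG, the E-box, stood in 8.77% against 7.90%, and TATAAA in 8.77% against 13.3%. The ratio of observed to expected CpG had a median of 0.903 in core promoters and 0.576 in all, with a GC content of 58.0% and 56.3%. The part of base composition in these motif counts was not tested.

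Motifs did not sort core genes by call in a plain way. An ETS motif stood in 8 of 17 promoters of core genes called in both lists, 11 of 22 called in WT only and 11 of 18 called in neither. A pyrimidine start stood in 2 of 17, 7 of 22 and 3 of 18 of these, and CCCGCCC in 11 of 17, 9 of 22 and 6 of 18. With at most 22 genes a class the exact intervals of these shares overlap. Motifs were searched at the promoter table's start, while a call could lie at either end of the gene. Rpl18 and Rpl4, called in both lists, had no region within 1000 bp of that start. Rpl22 and Rps2, called in neither, had one there, Rps2 in WT only. In promoters of mitochondrial ribosomal genes the ETS motif stood in 42.0%, the YY1 motif in 17.4% (9.32 to 28.4) and a pyrimidine start in 0 of 69, which allows a share of up to 5.21% (exact upper bound). Beginning within 5 bases of the start, such a run stood in 15 of these 69 (21.7%, 12.7 to 33.3).

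The 35 members with no region at an end (38.5%, against 64.8% of all protein-coding genes) included 25 core genes. From the large subunit these were Rpl3, Rpl6, Rpl8, Rpl17, Rpl19, Rpl22, Rpl23, Rpl23a, Rpl24, Rpl26, Rpl32, Rpl35a, Rpl38 and Rpl39. From the small subunit they included Rps2, Rps4x, Rps7, Rps9, Rps10, Rps15, Rps16, Rps18 and Rps28. Core ribosomal protein genes are in general expressed in every dividing cell, and expression was not measured in these files. The nearest region lay at a median of 47.8 kb in KO and 24.5 kb in WT, and 10 of the 35 had a WT region within 10 kb.

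Some calls turned on the window. Rpl22, whose loss in mice is known to block alpha-beta T cell development, had its nearest KO region 1239 bp from an end (fold enrichment 5.96) and its nearest WT region 1159 bp from an end (7.53), just outside the window. Measured from the promoter table's start alone, Rpl22 was called in both lists. Rpl17 had a WT region 1339 bp from an end (8.56), and Rps2 had one 1654 bp away (5.21). At the inner edge the KO region of Rpl4 lay 871 bp from the end. Rpl18, called in both lists at its ends, was called in neither at the start alone.

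Rps4x, the X-linked small subunit gene, is shown as a core promoter without a call in either list, at chrX:102189342-102189641 (minus).
Rps4x: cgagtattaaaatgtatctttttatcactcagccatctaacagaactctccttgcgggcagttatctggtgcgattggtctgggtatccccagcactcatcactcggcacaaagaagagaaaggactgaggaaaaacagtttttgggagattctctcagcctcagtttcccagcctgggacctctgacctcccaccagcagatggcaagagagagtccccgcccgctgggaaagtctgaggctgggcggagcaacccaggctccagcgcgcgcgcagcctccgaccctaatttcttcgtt
This window holds no ETS or YY1 match and no pyrimidine run, and it holds the CCCGCCC letters.

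Few paralogs were called. Of the 8 paralogs 2 were called in KO cells (Rpl22l1 and Rpl36al) and 2 in WT cells (Rpl22l1 and Rpl3l), or 25.0% in each (3.19 to 65.1), intervals that overlap those of the core genes. Rpl10l, Rpl32l, Rpl39l, Rpl7l1 and Rps27l had no region in either list. None of the 4 retrocopies (Rpl31-ps12, Rpl34-ps1, Rpl37rt and Rps27rt) was called in either list. Coding sequence of ribosomal protein genes is repeated in many processed copies, and how reads that map to several places were treated is not given in the sources used here. Calls inside a gene, such as that of Rpl12 away from its start, are uncertain for that reason.

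Many ribosomal protein genes host small nucleolar RNAs (snoRNAs), which guide the modification of ribosomal RNA, in their introns. In the gene annotation used, 30 core members held 59 snoRNAs. These host genes were called at 13 of 30 in KO cells (43.3%) and 20 of 30 in WT cells (66.7%), and of the 20 with a WT region 13 had a KO region (65.0%, 40.8 to 84.6). Core genes without a snoRNA were called at 14 of 47 in KO cells (29.8%) and 32 of 47 in WT cells (68.1%), and 14 of those 32 had a KO region (43.8%, 26.4 to 62.3). The intervals overlap. Members within 100 kb of each other formed 4 pairs, among them Rps29 and Rpl36al at 23.5 kb.

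Some of these regions also lay near a neighbouring gene, and such regions are called shared here. At 12 members the region also lay within 1000 bp of an end of another protein-coding gene. Among these neighbours were Med22 beside Rpl7a, Lias beside Rpl9, Trappc4 beside Rps25, Rab13 beside Rps27 and Micos13 beside Rpl36. Of the 11 such members with a WT region 5 had a KO region (45.5%), and of the 44 with a region of their own 24 had a KO region (54.5%).

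Among other genes of the pathway, those for ribosome assembly and translation factors were also called more often than genes at large. Polymerase I and its factors, which transcribe ribosomal RNA, had 2 of 8 genes called in KO cells (Polr1b and Taf1a) and 3 in WT cells. Genes of ribosomal RNA processing and assembly had 14 of 25 called in KO cells and 21 in WT cells, and all 14 were called in both. Elongation and termination factors had 7 of 11 called in KO cells and 11 in WT cells. Together 23 of these 44 genes were called in KO cells and 35 in WT cells, beside 21.1% and 34.6% of all protein-coding genes, and none was called in KO alone.

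Dkc1, the pseudouridine synthase of snoRNA particles, had the highest WT fold enrichment among the assembly genes, with 9.29 and 20 reads in KO cells, against 14.0 and 34 reads in WT cells. Npm1, a nucleolar histone chaperone, had 6.40 and 12 reads in KO cells, against 10.1 and 26 in WT cells. Ncl, the nucleolar RNA-binding protein nucleolin, had 4.76 and 11 reads in KO cells, against 9.35 and 22 in WT cells. Nop14, an assembly factor of the small subunit, had 8.87 and 24 reads in KO cells, against 8.39 and 26 in WT cells. Over the 14 assembly genes called in both lists the KO share of reads ran between 31.6% (Npm1) and 48.0% (Nop14) with a median of 39.6%, and it exceeded the 42.9% of depth alone at 2 of them.

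Of 10 other genes with TOP messenger RNAs, 4 were called in KO cells and 7 in WT cells, beside 21.1% and 34.6% of all protein-coding genes. Pabpc1, the poly(A) binding protein, had 5.13 and 11 reads in KO cells, against 10.5 and 34 in WT cells, and Tpt1, an abundant growth-related protein, had 5.51 and 13 reads in KO cells, against 9.04 and 31 in WT cells. Gas5, a noncoding snoRNA host, had 6.43 and 17 reads in KO cells, against 8.97 and 41 in WT cells. Nap1l1, a histone chaperone, had 9.29 and 25 reads in KO cells, against 9.90 and 39 in WT cells. The KO share of reads at these 4 genes ran between 24.4% (Pabpc1) and 39.1% (Nap1l1). All protein-coding genes called in both lists had a median of 38.6% (20.7% to 65.5%). Rack1, a scaffold bound to the small subunit, had no KO region and a WT region of 18 reads (7.09). Fau, which encodes a ribosomal protein fused to a ubiquitin-like protein and whose symbol lies outside the membership rule, was called in neither list.

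Of 10 genes for factors tied to these promoters or to TOP translation, 4 were called in both lists and Rps6kb1, an S6 kinase, in WT only with 15 reads. Of all protein-coding genes 21.1% were called in KO cells and 34.6% in WT cells. Mtor had 9.09 and 25 reads in KO cells, against 12.6 and 52 in WT cells. Gabpa had 7.38 and 21 reads in KO cells, against 10.1 and 43 in WT cells. Sp1 had 8.37 and 33 reads in KO cells, against 9.15 and 51 in WT cells, and Yy1 had 6.67 and 15 reads in KO cells, against 5.74 and 20 in WT cells. Gabpb1, Myc, Larp1, Rptor and Zbtb7a were called in neither list. No value here measures the level or the binding of these factors.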

How the data were processed

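Accessible regions were measured by ATAC-seq in 4 libraries, 2 KO and 2 WT. Per the submitters' processing notes, the build was mm10 and the tools named were MACS2 2.1.4, deepTools 3.4.1, Bowtie2, Trim Galore, FastQC, Picard and GATK. Their settings, the treatment of duplicates and of reads with several matches, and any shift for the transposase cut are not given in the sources used here. Per the labels, both replicates of a group were pooled into its list. The labels do not say whether replicates came from separate mice. The authors deposited a score for each region, with its fold enrichment (a ratio) and its −log10 p and −log10 q. The lowest −log10 q was 1.31 in KO and 1.32 in WT.

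Summit pileup and local background were solved from fold enrichment and p, since MACS2 writes the ratio with 1 added to each and p as a Poisson tail. Pileups were whole within 0.05 on 100% of regions. The most frequent background was taken as relative depth. Median summits held 15.0 reads in KO and 18.0 in WT, so shares at single genes carry wide intervals. Regions were assigned to genes by an overlap of at least 1 bp with 1000 bp around each end, as the gene table gives no strand. Strand, start and sequence came from the RefSeq promoter table for 70 of 91 members. Shares carry exact Clopper-Pearson 95% intervals. No test between groups was made. The solver and overlap were tested on simulated data.

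Named genes were all members called in 1 list, the 10 of highest WT fold enrichment, the 5 highest and 5 lowest KO shares, members called in neither list, and Rplp0, Rplp1, Rplp2, Rpsa, Rack1 and Fau. A few genes are not reported here by name or in the plots by gene, and counts include them. Pathway genes were named from fixed lists. Members and lists were chosen with earlier results of these data known. Rps13, Rpl22, Rpl17, Rps2, Rpl18 and the pathway genes given with values were picked after their values were seen. Alternatives were the window, the −log10 q threshold, the overlap, equal list length, shared regions, paralogs and local background, and core members only was added after the data were seen. Scripts ran in Python 3.11.15 with scipy 1.17.1, pandas 2.3.3 and numpy 2.4.6, and matplotlib 3.10.9 drew the plots.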

Additional observations from a re-analysis of the deposited data

How the results depend on the processing

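Of 76 alternative values, 72 stayed within the 95% interval or spread of the value reported. Requiring the summit in the window, leaving out high local background and both overlap rules left every count unchanged. Some intervals are also wide, as that of the small subunit (27.2 to 72.8) holds both 33.3% and 70.0%. The count of 72 is therefore a weak measure of stability. With the WT list limited to the length of the KO list by fold enrichment, 30.8% of members had a WT region and 71.4% of these (20 of 28, 51.3 to 86.8) also had a KO region, where 21.6% of all protein-coding genes had a WT region and 77.8% of those a KO region. By subunit, 72.2% of large subunit genes and 70.0% of small subunit genes with a WT region in that shorter list also had a KO region. With fold enrichment in place of summit reads the median KO share at genes called in both lists was 47.3%, since fold enrichment is already divided by each list's background. Over all alternatives the share with a KO region ran between 27.1% and 35.1%, the share with a WT region between 30.8% and 67.5%, and the share of WT-called members with a KO region between 43.9% and 71.4%. The large subunit ran between 48.0% and 72.2%, the small subunit between 33.3% and 70.0%, and the median KO share of reads between 36.9% and 47.3%. No paired analysis was possible because each group's replicates were pooled into 1 list and no column carries a replicate; for the same reason no replicate could be left out. Summits of fewer than 7 reads were called in neither list.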

Other observations

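The gene table also lists 309 pseudogenes named Rpl or Rps, the kind that arise when ribosomal protein messenger RNAs are copied back into the genome. A region at an end was found in both lists at 1 of them, Rpl7-ps8, with a fold enrichment of 5.05 in KO and 5.48 in WT. The pseudogene lies at chr15:59210897-59211789, and its region is not at an end of a protein-coding gene.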
